A study of Caenorhabditis elegans with 2 samples.

Results

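The genes described are those named for proteins of the large subunit of the cytoplasmic ribosome in Caenorhabditis elegans. They were taken by name, as protein-coding genes called rpl- followed by a number in the Ensembl models of WBcel235, which gave 47 genes of 19973 on the nuclear chromosomes. The family itself was chosen by its promoter summits and their ranks in the pooled and replicate lists, which were already known to be numerous and high, so the presence, rank and number of its peaks are descriptions and carry no test. LIN-13, a zinc-finger chromatin regulator that belongs to the synMuv B genes, was mapped by chromatin immunoprecipitation and sequencing in whole L2 larvae of mixed sex. Strain OP49 has the unc119(ed3) mutation and the transgene wgIs49, which holds lin-13 with TY1, EGFP and FLAG tags together with unc119. Both libraries come from this 1 strain and form 1 group of 2 biological replicates, with fragments of 150 to 350 bp. The labels give the antibody target as lin-13 and describe the experiment as directed against eGFP-lin-13, and they do not say which promoter drives the transgene. Other genotypes, stages and untagged animals were not analysed here, and no level can be assigned to a tissue because whole animals were used.

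The large ribosomal subunit holds the peptidyl transferase centre, where peptide bonds are made, and the tunnel through which the new protein leaves. Its proteins are needed in near-equal amounts by every growing cell, and their genes are among the most strongly transcribed. In C. elegans many messages are trans-spliced: a short leader is joined to the message at a 3′ splice site, so that the annotated start of a gene can be the splice site and not the point where transcription begins.

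The measure is a peak list. Each replicate list and the list from pooled replicates holds 30000 entries, and the thresholded list made from all 3 holds 3040, of which 3013 are nuclear. A rank of 1 is the highest deposited signal in a list. The scale of the signal and the sequencing depth are unknown, so strength is given as ranks and no interval that needs depth can be stated. A gene is said to have a promoter peak when a thresholded summit lay from 1000 bp upstream to 200 bp downstream of its outermost annotated start, on ce11.

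Of the 47 genes, 37 (78.7%) had a promoter peak, as did 11.6% of all nuclear protein-coding genes. Since the family was chosen for this pattern, nothing is read from the difference. Every peak was distinct, so that no summit was the strongest of more than 1 member. When the list was replaced by the 3040 entries of highest signal in a replicate, 39 members had a promoter entry in replicate 1 (background 11.5%) and 38 in replicate 2 (background 11.3%). All 37 members with a thresholded peak were among them in each replicate. Any entry of the pooled list was found at 42 members, against 36.3% of all genes.

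The sequences at the strongest peaks are shown first, because the letters recurring in them are described further on. Each run is the plus or minus strand of the reference genome in the direction of the ribosomal protein gene, 5′ to 3′, over 60 bp on either side of the summit. Capitals mark occurrences of 4 words of 7 letters on either strand. The first is CGAGTGT. The second, ACCGTAG, appears as CTACGGT where it reads against the gene. The third is TACTCAG, which reads CTGAGTA on the opposite strand. The last is GGCCTAA, which reads TTAGGCC on the opposite strand. Among the 4 members of highest rank, 3 hold such a word and the fourth, rpl-35, holds none.
rpl-3, chrIII:3867512-3867632, plus strand: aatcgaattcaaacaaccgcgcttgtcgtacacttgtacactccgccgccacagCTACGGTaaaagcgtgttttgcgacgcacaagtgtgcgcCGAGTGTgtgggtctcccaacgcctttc
rpl-15, chrIV:654865-654985, minus strand: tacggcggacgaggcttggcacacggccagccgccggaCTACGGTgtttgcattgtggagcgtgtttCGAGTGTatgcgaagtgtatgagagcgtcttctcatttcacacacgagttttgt
rpl-20, chrIV:4750005-4750125, minus strand: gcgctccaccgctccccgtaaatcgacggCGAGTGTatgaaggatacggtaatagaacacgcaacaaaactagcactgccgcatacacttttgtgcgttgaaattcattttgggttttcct
rpl-35, chrIII:7854622-7854742, plus strand: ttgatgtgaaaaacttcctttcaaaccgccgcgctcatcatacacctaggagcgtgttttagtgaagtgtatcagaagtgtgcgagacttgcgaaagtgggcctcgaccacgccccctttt

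In the next 3 members the words CGAGTGT and ACCGTAG stand side by side, with exactly 1 base between them, and read in the same direction as the gene.
rpl-6, chrIII:7208037-7208157, plus strand: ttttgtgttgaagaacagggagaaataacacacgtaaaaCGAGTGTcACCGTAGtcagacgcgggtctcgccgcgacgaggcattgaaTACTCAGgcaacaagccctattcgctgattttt
rpl-11.2, chrX:2242934-2243054, minus strand: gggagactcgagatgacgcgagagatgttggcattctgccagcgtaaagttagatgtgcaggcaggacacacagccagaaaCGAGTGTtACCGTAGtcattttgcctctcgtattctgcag
rpl-34, chrIV:12268504-12268624, plus strand: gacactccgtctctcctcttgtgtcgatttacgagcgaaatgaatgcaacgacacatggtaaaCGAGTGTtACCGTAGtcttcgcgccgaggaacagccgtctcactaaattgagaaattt

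The word TACTCAG follows TTGAA directly in the next 3 peaks, each read in the direction of the gene.
rpl-7A, chrIV:4390608-4390728, minus strand: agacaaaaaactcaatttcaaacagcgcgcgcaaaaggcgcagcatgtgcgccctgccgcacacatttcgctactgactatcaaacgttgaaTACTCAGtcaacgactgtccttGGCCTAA
rpl-32, chrII:9057406-9057526, minus strand: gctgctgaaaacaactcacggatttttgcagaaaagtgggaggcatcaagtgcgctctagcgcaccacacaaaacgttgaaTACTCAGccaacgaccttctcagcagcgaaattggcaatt
rpl-39, chrV:7776270-7776390, minus strand: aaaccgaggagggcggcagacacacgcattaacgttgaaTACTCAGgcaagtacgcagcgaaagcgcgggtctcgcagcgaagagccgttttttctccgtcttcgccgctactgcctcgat

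The last 3 sequences show the word GGCCTAA or its reverse complement, at rpl-43, rpl-28 and rpl-10, the last being the member with a thresholded peak of lowest signal.
rpl-43, chrII:14154493-14154613, plus strand: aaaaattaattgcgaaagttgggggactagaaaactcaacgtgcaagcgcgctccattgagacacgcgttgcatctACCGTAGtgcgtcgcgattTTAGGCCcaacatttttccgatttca
rpl-28, chrV:12728411-12728531, minus strand: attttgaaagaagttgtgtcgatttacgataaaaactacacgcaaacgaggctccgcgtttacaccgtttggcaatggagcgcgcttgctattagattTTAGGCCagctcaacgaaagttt
rpl-10, chrII:8143419-8143539, plus strand: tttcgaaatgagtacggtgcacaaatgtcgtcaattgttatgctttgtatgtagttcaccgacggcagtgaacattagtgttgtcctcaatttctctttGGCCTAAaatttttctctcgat

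Among the members, 4 stood highest. The peak of rpl-3 ranked 6 in the pooled list, 2 in replicate 1 and 7 in replicate 2. That of rpl-15 ranked 13, 7 and 18 in the same lists. The peaks of rpl-20 and rpl-35 ranked 14 and 16 in the pooled list, 6 and 5 in replicate 1, and 20 and 22 in replicate 2. These 4 were the only members among the 20 highest pooled ranks, and all of them stood higher in replicate 1 than in replicate 2. Next came rpl-12, which ranked 46 in the pooled list, 38 in replicate 1 and 47 in replicate 2, and rpl-11.2, which ranked 76, 68 and 72. In all, 6 members ranked within 100 in the pooled list, 24 within 500 and 34 within 1000. The median pooled rank of the 37 was 335, and 30 of them stood within 1000 in both replicates as well as in the pooled list.

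The members that completed the 12 of highest pooled signal ranked between 116 and 221. The peak of rpl-23 ranked 116 in the pooled list, 126 in replicate 1 and 105 in replicate 2. The peak of rpl-43 ranked 118, 125 and 107. The peaks of rpl-41.2 and rpl-22 ranked 164 and 165 in the pooled list, 198 and 131 in replicate 1, and 148 and 199 in replicate 2. Those of rpl-24.1 and rpl-6 ranked 193 and 221, with 259 and 209 in replicate 1 and 147 and 246 in replicate 2. Neighbours in this order exchanged places between replicates, so such close ranks do not order the members.

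**Figure D1:**
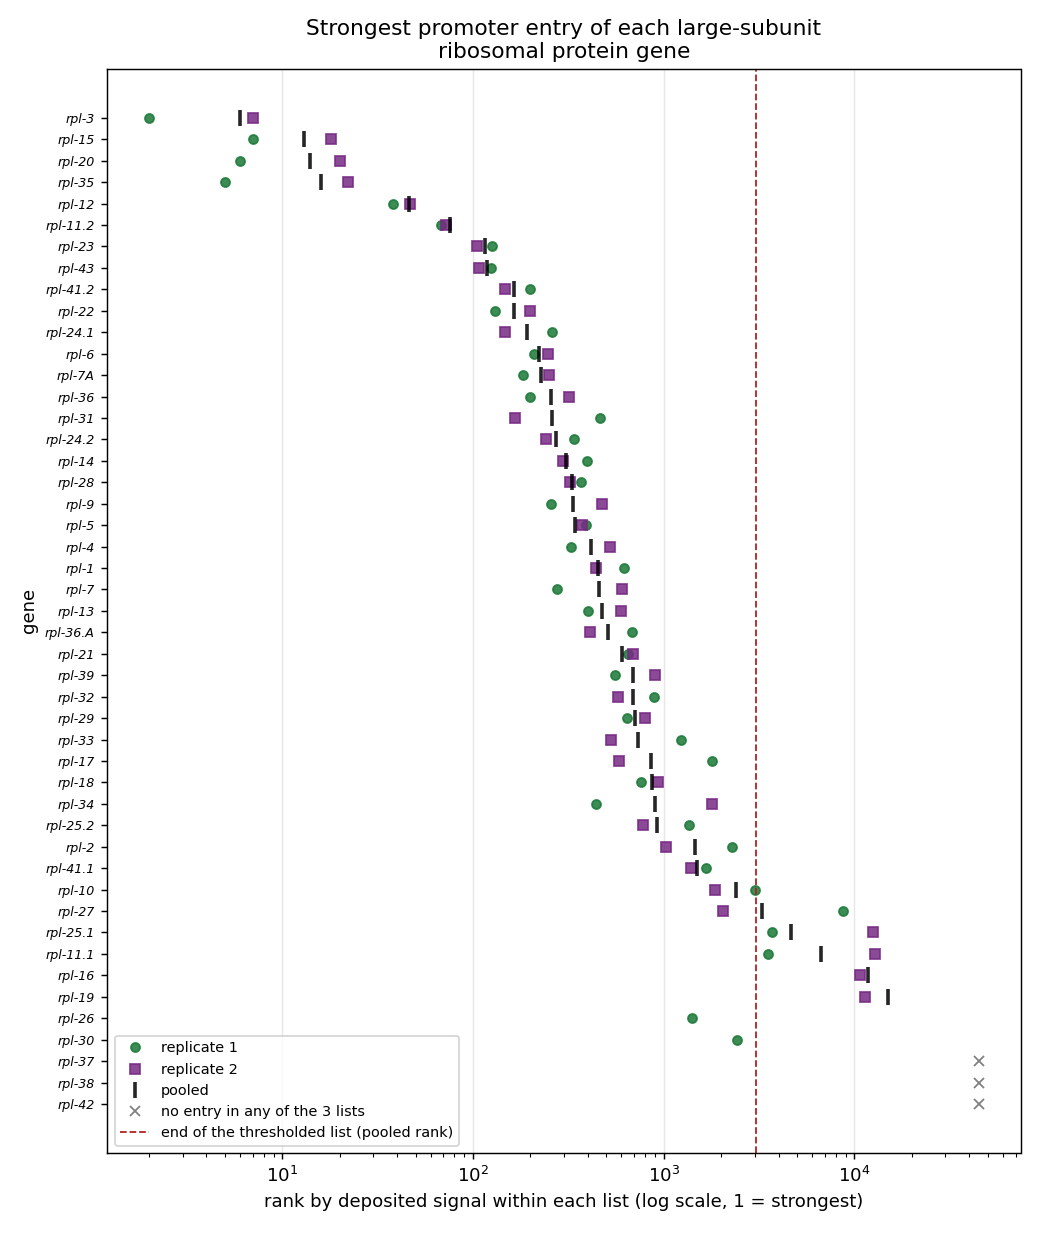
Rank of the strongest promoter entry of each of the 47 large-subunit genes (rows) in replicate 1 (circles), replicate 2 (squares) and the pooled list (bars), on a log axis where 1 is the strongest. The 37 members left of the dashed line in the pooled list have a thresholded promoter peak, rpl-26 and rpl-30 have an entry in replicate 1 alone, and rpl-37, rpl-38 and rpl-42 have none.

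The members were then read by their place in the ribosome, as known from yeast and vertebrate structures. RPL-3 and RPL-2 (the latter uL2 in the naming shared across species) lie beside the peptidyl transferase centre, and their promoters differed widely in rank. The rpl-2 peak ranked 1464 in the pooled list, 2278 in replicate 1 and 1029 in replicate 2, far below rpl-3 in all 3 lists. RPL-5 and RPL-11 bind the 5S ribosomal RNA. The rpl-5 peak ranked 344 in the pooled list, 392 in replicate 1 and 371 in replicate 2, and lay also in the promoter window of the collagen gene col-38.

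Among 8 genes for proteins that line or surround the exit tunnel, 6 had a promoter peak, at pooled ranks from 16 to 923. Besides rpl-35, the rpl-31 peak ranked 261 in the pooled list, 463 in replicate 1 and 166 in replicate 2. The peak of rpl-4 ranked 416, 328 and 522 and that of rpl-39 ranked 690, 555 and 896. The peaks of rpl-17 and rpl-25.2 ranked 855 and 923 in the pooled list, 1790 and 1361 in replicate 1, and 586 and 780 in replicate 2. The tunnel-exit genes rpl-25.1 and rpl-26 had no promoter peak. For the protein at the base of the P-stalk, rpl-12, the high rank given above belongs to a summit 36 bp upstream of its outermost start, in a window shared with the DREAM subunit gene lin-54. The L1-stalk gene rpl-1 ranked 455 in the pooled list, 617 in replicate 1 and 442 in replicate 2. RPL-10, which joins the subunit late in its assembly in yeast, had the lowest thresholded peak of the family, at rank 2389, with 3013 in replicate 1 and 1852 in replicate 2. The group set for late joining also held rpl-24.1 and rpl-24.2, at pooled ranks 193 and 271, so its ranks differed widely.

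Some genes that share a number differed in having a peak. The genes were paired by name alone, and their proteins were not compared. The peak of rpl-11.2 (WBGene00004423, chromosome X) ranked 76, whereas the best pooled entry at the promoter of rpl-11.1 (WBGene00004422, chromosome V) ranked 6643, with 3520 in replicate 1 and 12863 in replicate 2. For rpl-25.2 (WBGene00004439, chromosome I) the rank was 923, and for rpl-25.1 (WBGene00004438, chromosome X) it was 4641, with 3707 and 12589 in the replicates. Thus 1 gene of each of these pairs had a thresholded peak and the other had entries below the threshold in both replicates. Both rpl-24.1 and rpl-24.2 had peaks, and rpl-24.2 ranked 271 in the pooled list, 340 in replicate 1 and 241 in replicate 2. The genes rpl-41.1 and rpl-41.2 lie next to each other on the same strand of chromosome I, 699 bp apart. The rpl-41.1 peak ranked 1494, with 1660 and 1387 in the replicates. It was also the only member with more than 1 thresholded summit in its window, the further summit ranking 2386. A shared number need not mean the same protein. The pairs rpl-7 and rpl-7A and rpl-36 and rpl-36.A encode different proteins, and the other pairs were not checked. The pooled ranks were 459 for rpl-7 and 228 for rpl-7A, and 256 for rpl-36 and 509 for rpl-36.A.

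Over the 37 strongest promoter peaks, ranks in the replicates correlated with Spearman rho = 0.86 (Pearson r = 0.94 on log10 ranks), and over 2978 nuclear thresholded peaks with an entry in both replicates rho was 0.69 (r = 0.81). These coefficients run over peaks of the same libraries, peaks are not replicates, and the members span higher ranks than the other peaks do. The larger of the replicate ranks was a median of 1.56 times the smaller, against 1.48 over the nuclear thresholded peaks. In 10 members it was over 2 times. The widest gaps were at rpl-35 (4.40 times) and rpl-34 (4.04 times), where replicate 1 ranked higher, and rpl-3 (3.50 times), where the ranks of 2 and 7 lie at the top of the lists. The rpl-34 peak ranked 442 in replicate 1 and 1786 in replicate 2. Replicate 1 gave the higher rank at 19 members and replicate 2 at 18.

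**Figure D2:**
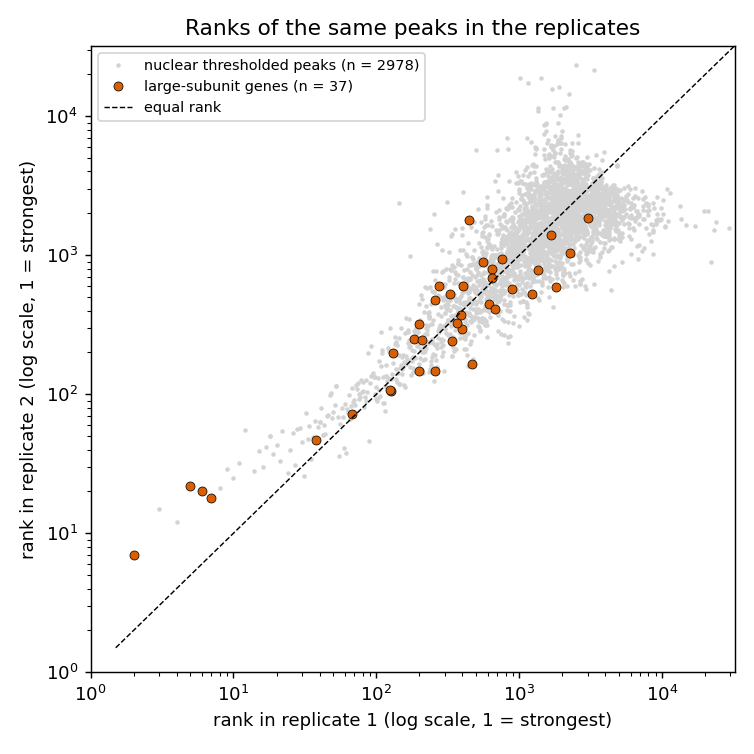
Rank in replicate 1 against rank in replicate 2 for 2978 nuclear thresholded peaks (grey) and the strongest promoter peak of 37 large-subunit genes (orange), both axes on a log scale, with the line of equal rank. The 4 strongest members lie above the line at ranks 2 to 7 in replicate 1, and the other members spread to either side of it.

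The family was chosen by summits inside the promoter window, which bounds every distance given here, and the place of a summit within the window is described with no test. All 37 strongest summits lay upstream of the annotated start, at 36 to 741 bp. The median distance was 291 bp and the interquartile range 263 to 381 bp. The interquartile range is set by the members themselves, so the 19 of 37 members within it follow from its definition. For the 2275 other genes with a promoter peak the median was 232 bp, and 16.1% of them lay within that range. The 30 small-subunit (rps-) genes with a promoter peak had a median of 293 bp, and 12 of them (40%) lay within it. The 18 mitochondrial large-subunit (mrpl-) genes with a promoter peak had a median of 198 bp. No test was made between these sets. Among the members 5 had summits closer than 200 bp: rpl-12 at 36 bp, rpl-7A at 78, rpl-25.2 at 153, rpl-24.2 at 167 and rpl-18 at 189. Of these 5, only rpl-12 has more than 1 annotated start. Its starts are spread over 771 bp, and the 36 bp is from the outermost. Another 3 lay beyond 450 bp, namely rpl-35 at 452, rpl-41.1 at 542 and rpl-43 at 741 bp.

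Summit positions recurred closely between the replicates. The replicate summits lay a median of 13 bp apart and at most 78 bp, at rpl-41.1, and 24 of 37 were within 20 bp. Over nuclear thresholded peaks the median was 22 bp. At rpl-39 both replicates placed the summit 251 bp upstream. The same 3 bases, CAG, stood directly before the annotated start in 36 of the 47 genes (76.6%), against 22.1% of all nuclear protein-coding genes. CAG ends the usual 3′ splice site, and the share was not tested. Distances to an annotated start may therefore include sequence removed by trans-splicing, and the lists cannot show where transcription begins.

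**Figure D3:**
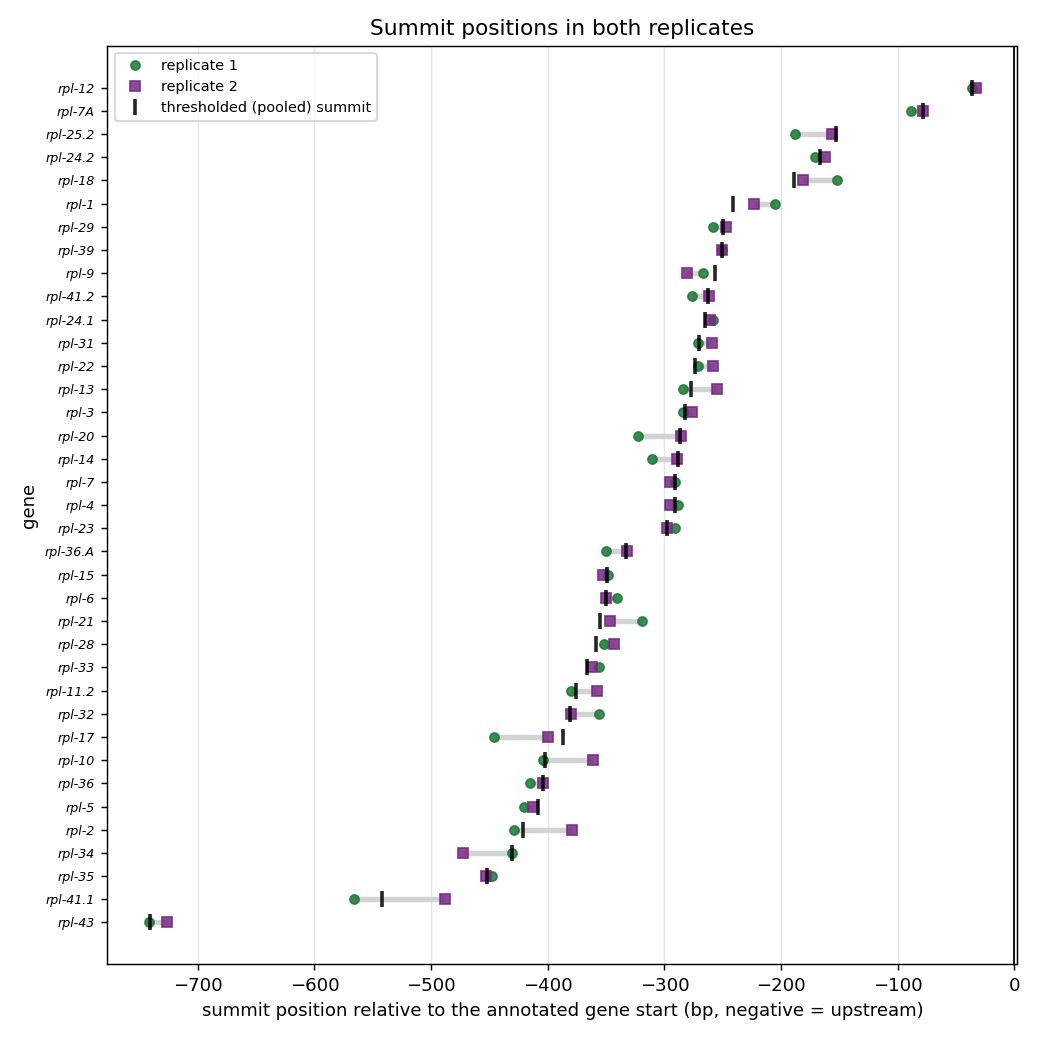
Summit position relative to the annotated start, in bp with negative values upstream, for the 37 members with a promoter peak, in replicate 1 (circles), replicate 2 (squares) and the thresholded list (bars). Rows run from rpl-12 at 36 bp to rpl-43 at 741 bp, and grey lines join the replicates.

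**Figure D4:**
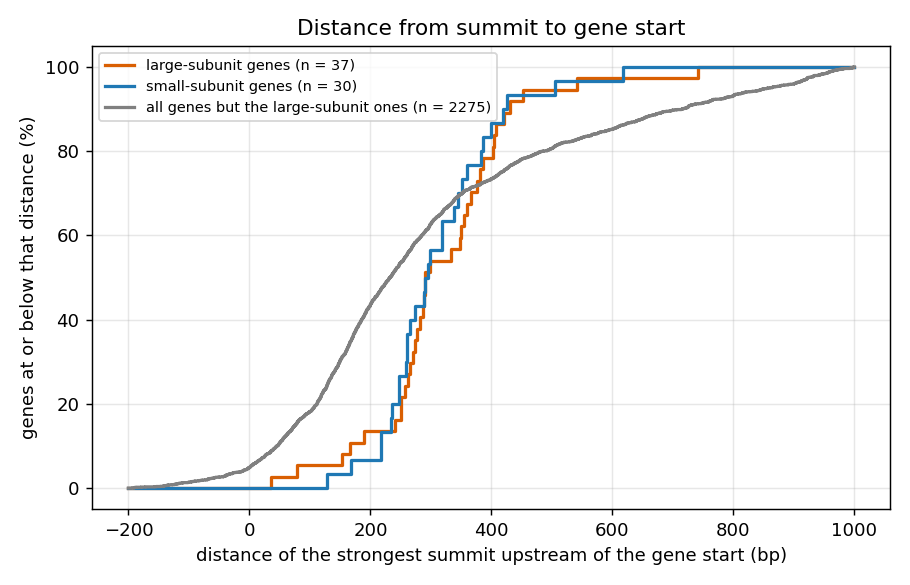
Cumulative share of genes, in percent, by distance in bp from the strongest promoter summit to the start, for 37 large-subunit genes, 30 small-subunit genes and all 2275 genes with a promoter peak outside the large subunit. Both ribosomal curves climb steeply between 200 and 450 bp, and the curve of the other genes climbs from the start outward.

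Most of the peaks lay between genes that start back to back or close by. The strongest summit was also in the promoter window of at least 1 other protein-coding gene at 27 of 37 members and in the member's window alone at 10. The member was the nearest start at 21, and another gene was nearer at 16. Shared windows are common beyond this family. Among the 2275 other genes with a promoter peak, the strongest summit lay in a shared window at 1209, and the gene was the nearest start at 1635. For the 30 small-subunit genes with a peak these counts were 20 and 18. The differences were not tested. When a summit was credited to its nearest protein-coding start alone, 22 members kept a peak (background 8.36%). Of the shared peaks, 3 joined large- and small-subunit genes: rpl-24.1 with rps-10, rpl-36 with rps-14 and rpl-39 with rps-30. Further shared windows included rpl-9 with lpd-7, a gene of ribosome assembly, rpl-28 with the mitochondrial ribosomal gene mrpl-49, rpl-36.A with nuo-1, a subunit of respiratory complex I, and rpl-22 with ify-1, the securin gene. Which gene of such a pair a peak belongs to cannot be told from the lists. Peaks in no other protein-coding window included those of rpl-3, rpl-35, rpl-11.2, rpl-6, rpl-14 and rpl-18. Non-coding RNA genes can also lie close. At 10 of the 37 peaks such a gene started within 300 bp of the summit, and no share over other peaks is given. The rpl-11.2 peak is among them, with starts of AH9.7 and linc-78.

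The remaining 10 members had no thresholded promoter peak, and 4 of them follow another gene closely on the same strand. The gaps were 97 bp at rpl-25.1 (behind glit-1), 105 bp at rpl-16 (behind lias-1), 119 bp at rpl-27 (behind C53H9.2) and 364 bp at rpl-19 (behind C09D4.6). The gap at rpl-19 is from its outermost start. From its other annotated start, 612 bp further into the gene, the gap is beyond 500 bp. None of the 37 members with a peak had a same-strand gene ending within 500 bp upstream, a limit chosen after the values were seen. Over the genome 18.1% of protein-coding genes have such a neighbour, and 8.91% of those had a promoter peak, against 12.2% of the rest. At rpl-16 a thresholded summit of rank 451 lay 1757 bp upstream of the start, before lias-1. At rpl-27 a pooled entry just outside the thresholded list ranked 3275, with its summit 98 bp downstream of the start, and ranked 8728 in replicate 1 and 2045 in replicate 2.

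The case of rpl-19 turned on the gene model. Its outermost start, at I:5486354, put the thresholded peak at I:5485808-5486157 in the gene, 371 bp downstream. Its other annotated transcript starts at I:5485742, and the same summit lay 241 bp upstream of it. The peak ranked 1415 in the pooled list, 1262 in replicate 1 and 1564 in replicate 2. When the start of any annotated transcript was accepted, 38 members had a promoter peak, rpl-19 being the 1 gained.

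The pooled list held no promoter entry at 5 members. At rpl-26 and rpl-30 replicate 1 listed an entry of its own, ranking 1401 at 261 bp upstream and 2414 at 378 bp upstream, while replicate 2 and the pooled list held none in the window. At rpl-37, rpl-38 and rpl-42 no list had an entry in the window. The start of rpl-37 lies inside pitp-1, a gene on the opposite strand, but the start of rpl-24.2, which had a peak, also lies inside another gene, C03D6.1. The lowest members within the thresholded list were rpl-10 (2389), rpl-41.1 (1494) and rpl-2 (1464), of which only rpl-10 was outside the higher-signal 1520 peaks. The highest members below the list were rpl-27 (3275) and rpl-25.1 (4641). By chromosome, peaks were found at 12 of 15 members on I, 7 of 9 on II, 7 of 9 on III, 7 of 7 on IV, 3 of 5 on V and 1 of 2 on X.

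Sequence at the summits was examined over 75 bp on either side, for 38 thresholded summits in large-subunit promoter windows and 1689 other promoter summits. The median GC content was 45.0% at the former, 43.0% at the latter, 47.0% at the 30 small-subunit summits and 33.8% over windows of the same length placed 291 bp upstream of all protein-coding genes. Next, 11 motifs were looked for on both strands. In each bracket the share at large-subunit summits is followed by that of other promoter summits and that of all promoter windows. The E-box CACGTG was at 1 of 38 summits (2.63%, against 4.68% of other promoter summits and 2.31% of all promoter windows). The TATA box TATAAA was at 2 (5.26%, against 10.1% and 18.7%), and the GC box GGGCGG at 3 (7.89%, against 7.70% and 2.96%). The letters TTTGAA, found in cell cycle homology regions, were at 14 (36.8%, against 31.7% of other promoter summits and a higher share, 8232 of 19973, of all promoter windows). TTCGAA was at 6 (15.8%, against 12.6% and 8.98%). The E2F-like letters GCGCGAA were at 2 (5.26%, against 4.97% and 1.04%), and CCCGCC, which on the opposite strand overlaps the GC box by 5 letters, at 4 (10.5%, against 8.64% and 2.82%). GAGAGA was at 8 (21.1%, against 29.2% and 9.06%), and CTGCGT also at 8 (21.1%, against 20.5% and 3.80%). ATCGAT was at 1 (2.63%, against 8.58% and 5.39%). TTTCAG, the letters of the 3′ splice site, was at 9 (23.7%, against 13.0% and 26.2%).

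Words of 7 letters were then ranked by how much more often they stood at large-subunit summits than at 1662 promoter summits of neither ribosomal subunit. This search used these peaks themselves, so the shares at large-subunit summits are descriptions. From the 5 highest of the ranking, 4 words were kept by hand, those in capitals in the sequences above. The word left out, ATACTCA, ranked 2 and shares 6 letters with TACTCAG, which ranked 3 and stood at the same number of summits. CGAGTGT (counted with its reverse complement, as are all) was at 12 of 38 summits (31.6%), against 1.87% of the other promoter summits and 0.756% of all promoter windows. ACCGTAG was at 11 (28.9%), against 2.29% and 0.851%. TACTCAG was at 8 (21.1%), against 1.14% and 0.916%, and GGCCTAA also at 8 (21.1%), against 1.20% and 1.00%. At least 1 of the 4 was at 27 of 38 summits (71.1%), against 6.26% of the other promoter summits.

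The 27 small-subunit summits that lay in no large-subunit window were not used in the ranking. There CGAGTGT was at 4 summits (14.8%), and ACCGTAG was at the same number. GGCCTAA was likewise at 4. TACTCAG was at 5 of these summits (18.5%). At least 1 word was held by 17 of the 27 (63.0%). The median pooled rank of large-subunit summits was 335 for the 27 with a word and 344 for the 11 without, the latter including rpl-35 at 16 and rpl-12 at 46. At large-subunit summits CGAGTGT lay a median of 21 bp from the summit. The median was 19 bp for ACCGTAG and 21.5 bp for TACTCAG. The last word, GGCCTAA, lay at a median of 57 bp. Within 500 bp upstream of the start, at least 1 word was found at 29 of the 37 members with a peak and at 3 of the 10 without, against 10.2% of all genes. Those 3 were rpl-11.1 and rpl-26, with GGCCTAA, and rpl-30, with ACCGTAG. The words were picked at the summits of the members with a peak. Nothing is therefore read from the difference between members with and without one.

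The side-by-side arrangement was counted over the nuclear chromosomes, with no expected count beside it. Both of its words were picked at these same large-subunit summits, so its places at large-subunit genes and near their summits are descriptions only. CGAGTGT followed after 1 base by ACCGTAG occurred at 10 places, on either strand. Of the 10, 9 lay in a promoter window of some protein-coding gene. The share of the genome in such windows is not given here, so nothing is read from that count. Of the 10 places, 4 were in large-subunit promoter windows, among them those of rpl-6, rpl-34 and rpl-11.2, at 364, 421 and 348 bp upstream of the start. The summits of these 3 lay 14, 10 and 28 bp away, and that of the fourth lay farther. One more place was 23 bp from the rpl-19 summit described above, so that 5 of the 10 lay at large-subunit genes, and in all 5 the words read in the direction of the gene. Elsewhere, the places in the windows of npp-3 and top-2 and of ife-3 had a thresholded summit within 150 bp, at ranks 154 and 1113 respectively, and the places at eel-1, oma-2 and fubl-3 had none. The arrangement was in 0 of the small-subunit promoter windows.

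TACTCAG preceded directly by TTGAA occurred at 34 places. Of these, 9 were in the promoter window of a ribosomal protein gene, 5 of them large-subunit (rpl-13, rpl-32, rpl-6, rpl-7A and rpl-39) and 5 small-subunit (rps-20, rps-0, rps-22, rps-3 and rps-30), the place between rpl-39 and rps-30 counting for both. All 9 had a thresholded summit within 150 bp. Of the 34 places, 17 were in some promoter window and 14 had such a summit. TACTCAG was picked at large-subunit summits, so summits near the 5 large-subunit places follow from that choice. Nothing is read from the difference between these counts. A match of letters is not evidence that LIN-13 touches them, and no factor is assigned to these words.

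Other genes of ribosome production were counted by the same rule, under which 11.6% of all nuclear protein-coding genes had a peak. The stalk and ubiquitin-fusion genes had peaks at 2 of 4 members: rla-0, the stalk protein P0, ranked 2187 and ubq-2, whose product contains the large-subunit protein L40, ranked 478, while rla-1 and rla-2 had none. Of 14 assembly and nucleolar genes, 9 had a promoter peak. Among these 9, 7 had their strongest peak in another gene's window too, and 4 were its nearest start. The strongest were fib-1, the fibrillarin gene (rank 321), lpd-7 (rank 335, the peak shared with rpl-9), rbd-1 (rank 342) and pro-1 (rank 639). Small-subunit genes had peaks at 30 of 31 members (96.8%) with a median rank of 296.5, and mitochondrial large-subunit genes at 18 of 41 (43.9%) with a median rank of 690, beside 78.7% and 335 here. These families were compared with results already in view, and no test of their difference was made.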

How the data were processed

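Peak lists on ce11 were used as deposited: 1 for each of 2 replicates, 1 for the pooled replicates and 1 thresholded list which, per the listings deposited beside the lists, came from those 3 through the irreproducible discovery rate step. The labels and listings name no aligner, peak caller, version or threshold. The deposited signal column has no stated scale and served only for ranks within a list. The deposited −log10 q values, 2.73 to 2.99 in the thresholded list, were not used. The ce10 lists were not used. Depth is unknown. Sequences are printed for selected summits, and 1 of those selected is not reported here.

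Gene models were Ensembl release 115 and sequence was the RefSeq genome of WBcel235, whose chromosomes are those of ce11. All 3040 thresholded peaks were found in the pooled list. Replicate entries were matched to a peak by at least 1 bp of overlap, taking the strongest. A summit was counted for every protein-coding promoter window it lay in. Members, lists, motifs and comparisons were chosen with earlier results of these data known, and the 7-letter words after the values were seen. Named were the 12 strongest members, those nearest the threshold, all members without a peak, genes sharing a number, members with several summits or the widest replicate gaps, and set functional groups. The gene name nmd-3 was unmatched. No p-values were computed. The assignment of summits to genes was tested on simulated data. Python 3.11.15, numpy 2.4.6, pandas 2.3.3, scipy 1.17.1 and matplotlib 3.10.9 were used.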

Additional observations from a re-analysis of the deposited data

How the results depend on the processing

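The number of members with a promoter peak ranged from 36 to 42 under the other windows, the higher-signal 1520 peaks, overlap of the whole interval, starts of any transcript, any pooled entry and the replicate lists, and was 39 with the stalk and ubiquitin-fusion genes added. It fell to 22 when each summit went only to the nearest start. With 500 bp upstream to 100 bp downstream rpl-43 was lost, and with 2000 bp upstream to 500 bp downstream rpl-11.1, rpl-16 and rpl-19 were gained. Without replicate 2 rpl-26 and rpl-30 were gained and without replicate 1 rpl-27. The median rank of the strongest summit, 335, was 340 in the narrower window, 380 in the wider one, and 390 to 392 when either replicate was left out. The median distance, 291 bp, was 295 to 311 bp when either replicate was left out, and 291 to 294 bp in the other windows. Counts of nearest starts, of shared windows and of summits with any of the 11 searched motifs (32 of 38, 23 within 50 bp and 37 within 150 bp) stayed within 1.5 times. The motif count has no share of other promoter summits beside it, and TTTGAA alone was at 31.7% of those, so it is no trait of the family. The replicate correlation was 0.90 over the 21 nearest-start members. No paired analysis was possible because there is 1 group. The unknown depth limits every statement on missing peaks: an unlisted promoter is not an unbound one.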
